A study of Homo sapiens with 6 samples.

Results

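Heterotrimeric G proteins and their RGS regulators were followed across 6 Affymetrix HG-U133 Plus 2.0 arrays of human cells labelled HepG2, a liver tumour line. On 3 arrays the cells had received an siRNA against RNF43, a membrane ubiquitin ligase that restrains Wnt signalling, and on the other 3 a negative control siRNA. Transfection was with Lipofectamine 2000 in both groups, and RNA was taken 48 h later. Members were the genes whose array symbol is a named Gα gene (GNAI, GNAO, GNAS, GNAL, GNAQ, GNAZ or GNA with a number), GNB1 to GNB5, a numbered GNG gene or a numbered RGS gene. This gave 48 of the 19775 genes with a probe set naming 1 gene, namely 13 Gα, 5 Gβ, 10 Gγ and 20 RGS genes. Where a gene had several such probe sets, the brightest on average over the 6 arrays stood for it. A gene was tested when that mean lay above 5.83, the upper 50% of probe sets, and 33 members passed this filter. The labels call the 3 arrays of a group biological replicates and do not say whether each came from its own culture. The p-values therefore cover array-to-array spread, which may be partly technical.

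A heterotrimeric G protein couples a seven-pass receptor to the cell interior. Receptor activation loads GTP onto the Gα subunit, which separates from the Gβγ dimer, and both then act on effectors such as adenylyl cyclase and phospholipase C-β. RGS proteins speed GTP hydrolysis on Gα and so end the signal. In liver, Gs-coupled glucagon receptors raise cAMP, while Gq-coupled receptors raise calcium.

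The siRNA strands that define the groups, as the labels give them, are shown 5′ to 3′ with bases 2 to 8 of each antisense strand, its seed, in capitals.
RNF43 siRNA sense: cagaacagaaagcuauuautt
RNF43 siRNA antisense: aUAAUAGCuuucuguucugtt
Negative control siRNA sense: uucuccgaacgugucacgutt
Negative control siRNA antisense: aCGUGACAcguucggagaatt
The seeds differ between the groups, and matches to them in transcripts were not analysed here.

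RNF43 itself was 1.56-fold higher on the arrays labelled RNF43 siRNA (log2 difference 0.64, SE 0.14, limma adjusted p = 0.0098), so the arrays go against their label for this gene. Directions below are those of the arrays labelled RNF43 siRNA, whose RNF43 signal was not reduced. Most hepatocyte markers lay below the filter described above, although the cells are labelled HepG2. Of 9 measured, only AFP passed the filter, and ALB, APOA1, APOB, TTR, FGB, SERPINA1, TF and FOXA2 had mean log2 signals of 3.45 to 5.18. The summed linear signal of all 9, AFP included, was 247 to 313 on RNF43 siRNA arrays and 320 to 446 on control siRNA arrays. AFP itself did not pass the test (log2 difference -0.60, limma adjusted p = 0.0877). The untested genes differed in sign, with log2 differences of 1.59 for FOXA2 and -1.08 for APOB, among others. Fibroblast and stellate markers passed the filter in 4 of 6 genes, and 3 of these fell, beside 11.1% of all tested genes lower. They were COL3A1 (2.54-fold), ACTA2 (1.98-fold) and DCN (1.46-fold), while COL1A1 did not pass (log2 difference -0.20, limma adjusted p = 0.172). Below the filter and untested, COL1A2 and PDGFRB had log2 differences of 0.73 and -1.60. The summed linear signal of all 6 was 2743 to 3066 on RNF43 siRNA arrays and 3852 to 4391 on control siRNA arrays. No measured leukocyte or platelet marker passed the filter, and of endothelial and neuronal markers 1 each did, without passing the test. The endothelial sums were 188 to 220 on RNF43 siRNA arrays and 146 to 186 on control siRNA arrays. The leukocyte, neuronal and platelet sums overlapped between groups. They were 68.6 to 162, 187 to 269 and 47.6 to 147 on RNF43 siRNA arrays. On control siRNA arrays they were 99.2 to 161, 208 to 316 and 67.1 to 131. Only PPBP, a platelet gene, had a value at 0 on any array. The part of these marker differences in the results below was not tested. In bulk RNA, fewer cells of a type and less RNA per cell cannot be told apart.

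Of the 33 tested members, 6 were higher and 2 were lower on RNF43 siRNA arrays. That is 24.2% of tested members, beside 22.6% of all 11853 tested genes (11.5% higher and 11.1% lower), so the share called was near that of all genes. The median log2 difference was -0.01 over the members and -0.00283 over all tested genes. The groups did not overlap for 12 members, or 36.4%, beside 38.9% of all tested genes. All RNF43 siRNA arrays lay above all control siRNA arrays for 8 of them, beside 19.1% of all tested genes, and below for 4, beside 19.8%. Changes of at least 2-fold were called for 1.72% of all tested genes and for 2 members, GNB4 and RGS14.

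**Figure D1:**
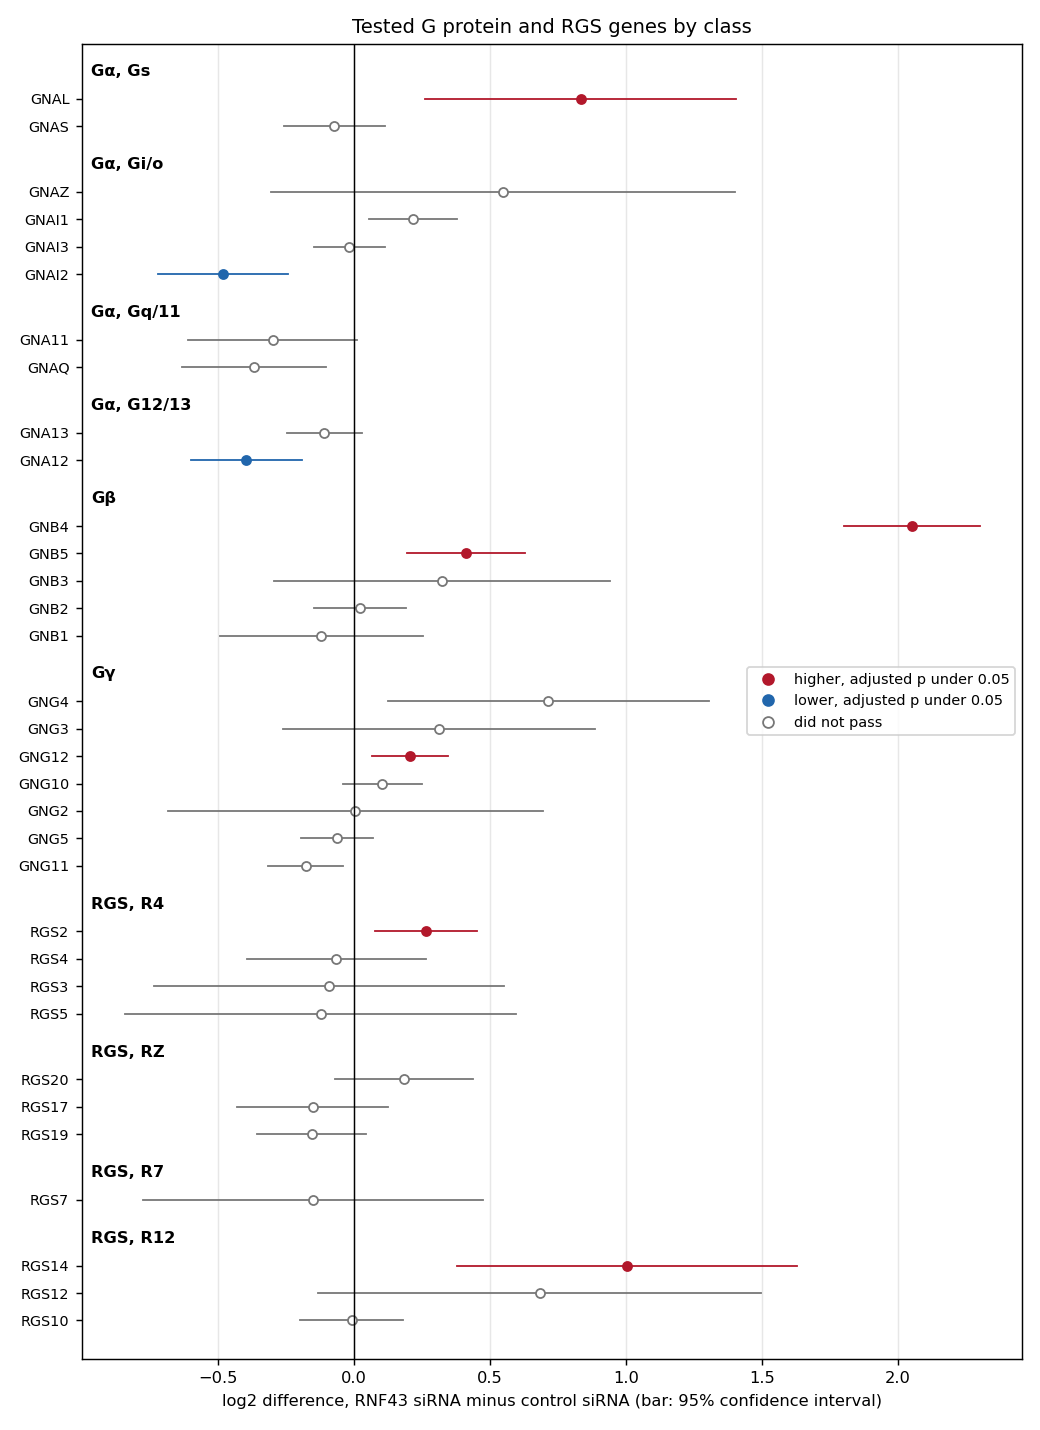
Log2 difference of RNF43 siRNA minus control siRNA arrays for the 33 tested members, grouped by class, with 95% confidence intervals from limma. GNB4 stands at 2.05, while the other 32 lie between -0.48 and 1.0.

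GNB4 encodes a Gβ subunit, the propeller-shaped partner that holds Gγ and docks Gα. On its brightest probe set, 225710_at, its log2 signal was 11.87, 11.93 and 12.24 on RNF43 siRNA arrays, against 9.85, 9.90 and 10.14 on control siRNA arrays. The lowest RNF43 siRNA array lay well above the highest control array. GNB4 was 4.15-fold higher (95% confidence interval 3.49 to 4.93, log2 difference 2.05, SE 0.11, limma adjusted p = 2.36e-06). The other GNB4 probe sets did not show this rise. On 223488_s_at the log2 signal was 8.20, 8.07 and 8.24 on RNF43 siRNA arrays and 8.12, 8.47 and 8.24 on control siRNA arrays. These groups overlapped, and the log2 difference was -0.10 (SE 0.14, adjusted p = 0.674 in the limma fit over probe sets). On 223487_x_at, which lay below the filter, values were 5.68, 5.55 and 6.04 on RNF43 siRNA arrays and 4.77, 5.10 and 6.45 on control siRNA arrays, again overlapping.

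The gap between 225710_at and 223488_s_at was itself compared. It was 3.84 ± 0.17 log2 units on RNF43 siRNA arrays and 1.68 ± 0.24 on control siRNA arrays (SD, n = 3 each). The difference of 2.16 was higher on all 3 RNF43 siRNA arrays (exact two-sided permutation test, p = 0.1, and this design cannot give a smaller p). Averaged over its 3 probe sets, GNB4 had a log2 difference of 0.75 (adjusted p = 0.0287). The part of the GNB4 transcript that each probe set reads was not analysed here.

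**Figure D2:**
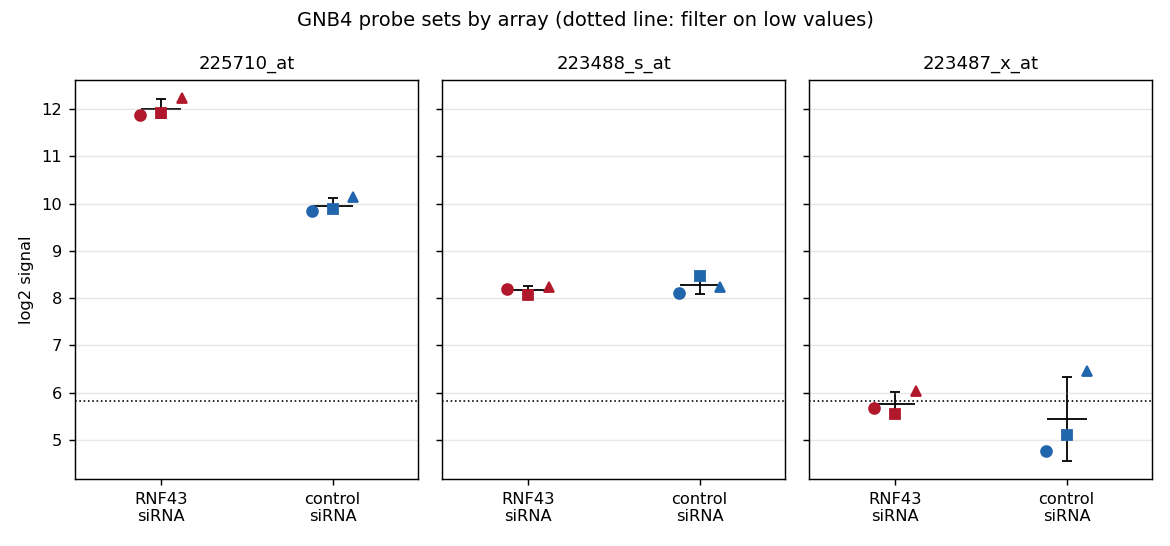
Log2 signal of the 3 GNB4 probe sets on each array (circle, square and triangle for replicates 1, 2 and 3), with group mean and SD; the dotted line is the filter at 5.83. On 225710_at RNF43 siRNA arrays lie about 2.05 above control arrays, while on the other probe sets the groups overlap.

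The promoter of GNB4 is shown because this gene had the largest difference among the tested members. RefSeq places it at chr3:179451421-179451720 on the minus strand of GRCh38.p14, from 250 bases before to 50 bases after the transcript start.
GNB4 promoter: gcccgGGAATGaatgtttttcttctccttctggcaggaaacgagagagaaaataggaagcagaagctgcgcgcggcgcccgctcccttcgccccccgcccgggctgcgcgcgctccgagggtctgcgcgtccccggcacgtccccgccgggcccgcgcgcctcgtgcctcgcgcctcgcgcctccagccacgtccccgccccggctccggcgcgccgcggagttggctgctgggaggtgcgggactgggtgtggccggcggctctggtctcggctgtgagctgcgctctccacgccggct
Capitals mark the letters GGAATG, a motif of TEAD factors, the DNA-binding partners of YAP and TAZ. On either strand GGAATG is found in 14.0% of the 35116 RefSeq promoters of this length. It is found in a promoter of 5 of the 41 members that have one, and among the 8 called members in GNB4 and GNB5. A gene can have several promoters, so these counts of genes are not comparable with the share of promoters. The window holds none of CTTTGAT or CTTTGTT (TCF and LEF factors), TGACGTCA (CREB) or its half-site TGACG, which are found in 7.61%, 1.85% and 24.6% of promoters. A match of letters is a description and not a site.

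The other Gβ genes moved less. GNB5 encodes the divergent Gβ that pairs with RGS proteins of the R7 class in place of Gγ. Its log2 signal was 9.67, 9.64 and 9.77 on RNF43 siRNA arrays, against 9.16, 9.25 and 9.42 on control siRNA arrays, with no overlap. It was 1.33-fold higher (log2 difference 0.41, SE 0.10, limma adjusted p = 0.0128). Of its 3 other tested probe sets, 2 had positive differences that did not pass (0.20 and 0.27) and 1554346_at had -0.56 (SE 0.39). The remaining one, 242404_at, lay below the filter and had a difference of -0.57. Over the mean of all 5, this one included, the direction turned (log2 difference -0.05). Without control siRNA replicate 1 the GNB5 call was lost (adjusted p = 0.0584). GNB1, GNB2 and GNB3 had log2 differences of -0.12, 0.02 and 0.33 that did not pass.

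Gα genes are ordered by what they act on. In the Gs class, which stimulates adenylyl cyclase, GNAL, the olfactory form, had log2 signals of 6.62, 6.72 and 7.02 on RNF43 siRNA arrays, against 5.98, 6.14 and 5.74 on control siRNA arrays. The groups did not overlap, and GNAL was 1.78-fold higher (log2 difference 0.83, SE 0.26, limma adjusted p = 0.0403). Of its 4 probe sets only 1, 213924_at, lay above the filter, and the others were not tested. The GNAL call was lost on leaving out any 1 of the 6 arrays (adjusted p = 0.0585 to 0.12) and with no filter on low values (0.109). With the filter at the upper 30% of probe sets, or with the mean of its probe sets, GNAL lay below the filter and was not tested. GNAS, the ubiquitous form, did not pass on its brightest probe set, with a log2 difference of -0.07 (SE 0.08). Of its 8 other tested probe sets, 214157_at was higher (log2 difference 0.43, adjusted p = 0.00898 in the fit over probe sets) and the other 7 had differences of -0.28 to -0.01.

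In the Gi class, which inhibits adenylyl cyclase, GNAI2 fell. Its log2 signal, on its single probe set, was 8.67, 8.85 and 8.98 on RNF43 siRNA arrays, against 9.29, 9.41 and 9.26 on control siRNA arrays. All RNF43 siRNA values lay below all control values, and GNAI2 was 1.4-fold lower (log2 difference -0.48, SE 0.11, limma adjusted p = 0.00978). This call passed under all 21 alternatives to the fit. GNAI1 had a log2 difference of 0.22 on its brightest probe set, 209576_at, which did not pass (adjusted p = 0.0551). GNAI1 passed as higher in 4 of the 21 alternatives. Its other probe set, 227692_at, had 11.17, 10.93 and 11.14 on RNF43 siRNA arrays, against 10.50, 10.44 and 10.34 on control siRNA arrays, and was 1.57-fold higher (adjusted p = 0.00162 in the fit over probe sets). GNAI3 and GNAZ had log2 differences of -0.02 and 0.55 that did not pass.

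In the Gq class, which activates phospholipase C-β, neither GNAQ nor GNA11 passed on the brightest probe set. GNAQ had log2 signals of 10.80, 10.41 and 10.53 on RNF43 siRNA arrays and 11.09, 11.03 and 10.73 on control siRNA arrays, which overlapped (log2 difference -0.37, limma adjusted p = 0.0503). It passed as lower in 8 of the 21 alternatives. Its other 4 probe sets did not pass and differed in sign, with log2 differences of 0.21 on 224861_at, -0.17 on 224862_at, -0.46 on 224863_at and -0.47 on 211426_x_at. The first of these was higher, and the last 2 lower, on all 3 RNF43 siRNA arrays without overlap. All 6 GNA11 probe sets had negative differences (-0.39 to -0.11), and 2 of them, 564_at and 40562_at, passed as 1.29-fold and 1.30-fold lower (adjusted p = 0.025 and 0.0357 in the fit over probe sets). In the fit over genes, GNA11 passed as lower in 6 of the 21 alternatives.

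In the G12 class, GNA12 fell. Its log2 signal was 10.92, 11.05 and 10.85 on RNF43 siRNA arrays, against 11.36, 11.48 and 11.18 on control siRNA arrays, with no overlap. GNA12 was 1.31-fold lower (log2 difference -0.39, SE 0.09, limma adjusted p = 0.0117). Its other probe set, 221737_at, had a difference near 0 (2.66e-04, SE 0.12), and the call was lost with the mean of both (adjusted p = 0.17) and without control siRNA replicate 2 (0.0527). GNA13 did not pass on 224761_at (log2 difference -0.11), while 227539_at had 9.30, 9.29 and 9.30 on RNF43 siRNA arrays against 8.57, 8.5 and 8.58 on control siRNA arrays. That probe set was 1.68-fold higher (adjusted p = 0.00122 in the fit over probe sets). The remaining one, 206917_at, had a difference of -0.55 that did not pass (adjusted p = 0.187 in that fit).

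**Figure D3:**
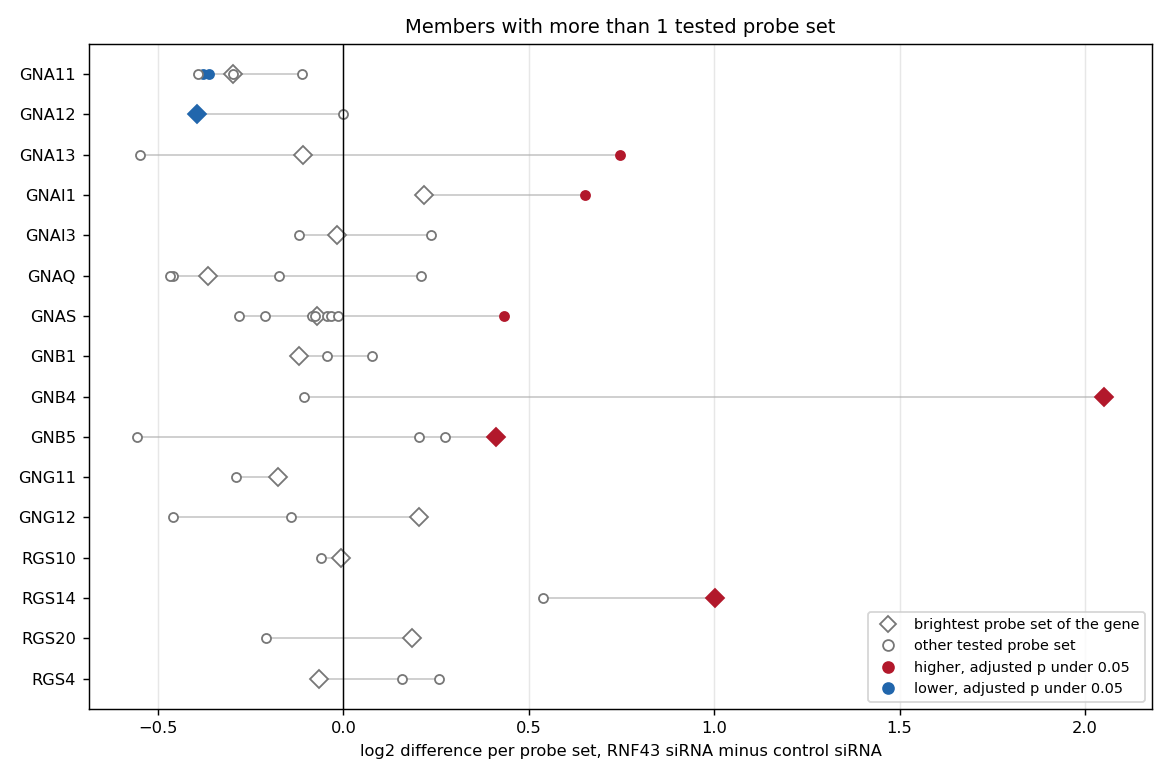
Log2 difference of RNF43 siRNA minus control siRNA arrays for every tested probe set of the 16 members that have more than 1; diamonds mark the brightest probe set of a gene and filled symbols those that passed. In 5 of the 16 genes all tested probe sets share a sign, and in none did every tested probe set pass.

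Over probe sets, 70 of the 138 that name a member passed the filter. Of these, 11 passed, beside 15.5% of all 27306 tested probe sets. The 7 higher ones stand beside 7.9% of all tested probe sets, and the 4 lower ones beside 7.55%. GNG12 and RGS2, called in the fit over genes, did not pass in this one (adjusted p = 0.0524 and 0.069).

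Gγ subunits anchor the βγ dimer in the membrane through a lipid tail. GNG12 had log2 signals of 12.40, 12.34 and 12.29 on RNF43 siRNA arrays, against 12.13, 12.13 and 12.17 on control siRNA arrays. The groups did not overlap, but the rise was small at 1.15-fold (log2 difference 0.20, SE 0.06, limma adjusted p = 0.0395). Its other probe sets, 1555240_s_at and 222834_s_at, had -0.14 (SE 0.18) and -0.46 (SE 0.38) and did not pass. The mean of all 3 GNG12 probe sets turned the direction (log2 difference -0.13). Leaving out replicate 1 or 2 of either group also ended the GNG12 call (adjusted p = 0.102 to 0.129), as did no filter on low values (0.0591) and no intensity trend (0.0928). GNG11 (-0.18, adjusted p = 0.0639) and GNG4 (0.72, 0.0811) did not overlap between groups either and did not pass. GNG11 passed as lower in 2 of the 21 alternatives, and GNG4 as higher with no intensity trend. GNG2, GNG5 and GNG10 overlapped and GNG3 did not, and these 4 had log2 differences of -0.06 to 0.31 that did not pass.

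**Figure D4:**
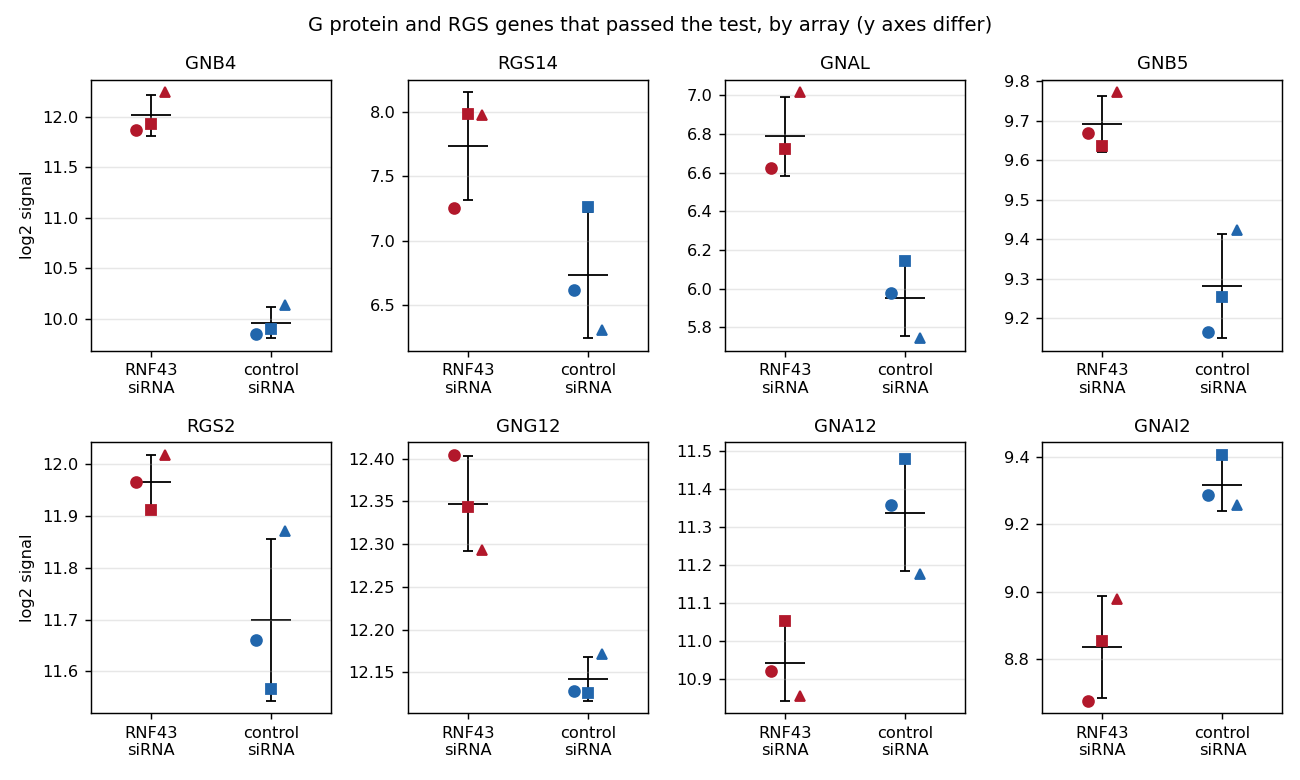
Log2 signal on each array (circle, square and triangle for replicates 1, 2 and 3) of the 8 members that passed, with group mean and SD; y axes differ between panels. RGS14 is the one member of the 8 whose groups overlap, by control replicate 2 at 7.27 and RNF43 siRNA replicate 1 at 7.25.

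Of the 20 RGS genes, 11 were tested, 2 rose and 0 fell, and 9 did not pass. That is 18.2% of the tested RGS genes, near the 22.6% of all tested genes (11.5% higher and 11.1% lower). RGS14, of the R12 class, acts on Gαi and also carries a GoLoco motif that binds GDP-bound Gαi. Its log2 signal was 7.25, 7.98 and 7.97 on RNF43 siRNA arrays, against 6.62, 7.27 and 6.31 on control siRNA arrays. These values overlapped, and RGS14 was 2.00-fold higher (95% confidence interval 1.30 to 3.09, log2 difference 1.0, SE 0.28, limma adjusted p = 0.027). Its other tested probe set had a difference of 0.54 that did not pass (adjusted p = 0.157 in the fit over probe sets). The RGS14 call was lost without RNF43 siRNA replicate 2 or 3 or control siRNA replicate 1 or 3 (adjusted p = 0.0643 to 0.112), with no filter on low values (0.054) and with no intensity trend (0.067). With the filter at the upper 30% of probe sets, or with the mean of its probe sets, RGS14 lay below the filter and was not tested.

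RGS2, of the R4 class, prefers Gαq. It had log2 signals of 11.96, 11.91 and 12.02 on RNF43 siRNA arrays, against 11.66, 11.57 and 11.87 on control siRNA arrays. The groups did not overlap, and RGS2 was 1.20-fold higher (log2 difference 0.27, SE 0.08, limma adjusted p = 0.0463). This call was lost in 10 of 21 alternatives, among them leaving out any 1 array but control siRNA replicate 3 (adjusted p = 0.0852 to 0.18). Among the remaining R4 genes RGS3, RGS4 and RGS5, a pericyte marker, had log2 differences of -0.12 to -0.07. The RZ genes RGS17, RGS19 and RGS20, which act on the Gi class, had -0.16 to 0.18. RGS7 had -0.15, and the R12 genes RGS10 and RGS12 had -0.01 and 0.68 (SE 0.09 and 0.37). None of these passed.

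The other 15 members lay below the filter and were not tested. They were GNAO1, GNA14 and GNA15, the Gγ genes GNG7, GNG8 and GNG13, the R4 genes RGS1, RGS8, RGS13, RGS16 and RGS18, the R7 genes RGS6, RGS9 and RGS11, and RGS22. Their mean log2 signals were 1.41 to 5.65, with a median group SD of 0.72, against 0.14 in the tested members. Like RGS7, the genes RGS6, RGS9 and RGS11 are of the R7 class that pairs with GNB5. Of this class RGS7 alone lay above the filter and was tested. Many of these genes are known from neurons or blood cells.

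Genes around the G proteins were counted in the same fit. Of 77 measured effector, modulator and cAMP-response genes, 48 were tested, 6 were higher and 3 lower, or 18.8% beside 22.6% of all tested genes, with a median log2 difference of 0.05. Among chaperones and modulators, 3 of 7 tested genes rose and 0 fell, beside 11.5% of all tested genes higher and 11.1% lower, and a difference from these shares was not tested. These were GPSM1 at 1.5-fold and GPSM2 at 1.28-fold, which bind GDP-bound Gαi through GoLoco motifs, and CCDC88A, the Gαi modulator girdin, at 1.21-fold (adjusted p = 0.0205, 0.0123 and 0.0352). Of 7 tested cAMP-degrading phosphodiesterases, 1 rose and 1 fell, beside 11.5% of all tested genes higher and 11.1% lower. PDE8B had log2 signals of 8.98 ± 0.03 on RNF43 siRNA arrays and 8.47 ± 0.12 on control siRNA arrays (SD, n = 3 each). PDE8A had log2 signals of 10.68, 10.95 and 10.67 on RNF43 siRNA arrays and 11.14, 11.32 and 11.14 on control siRNA arrays. PDE8B was 1.43-fold higher and PDE8A 1.35-fold lower (limma adjusted p = 0.00659 and 0.00872), and the other 5 tested did not pass.

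Downstream of Gs, 0 of 4 tested adenylyl cyclases passed, and of 7 tested protein kinase A genes PRKAR2A, a regulatory subunit, was 1.23-fold lower (adjusted p = 0.043). CREB1, the cAMP-responsive transcription factor, was 1.27-fold higher (adjusted p = 0.0151), while the other 7 tested genes of its list, among them NR4A1 (0.65, adjusted p = 0.0878) and NR4A2 (0.39), did not pass. Downstream of Gq, PLCB4, a phospholipase C-β, was 1.38-fold lower and ITPR1, a calcium release channel, 1.48-fold higher (adjusted p = 0.0312 and 0.0113), and 3 of the 5 tested did not pass. None of the 4 tested receptor kinases and arrestins passed, nor did AXIN1, which carries an RGS domain and scaffolds β-catenin breakdown. None of the 6 measured PI3K-γ and Gβγ-activated channel genes lay above the filter. The counts called in these short lists stand beside 22.6% of all tested genes (11.5% higher and 11.1% lower). A difference from these shares was not tested.

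**Figure D5:**
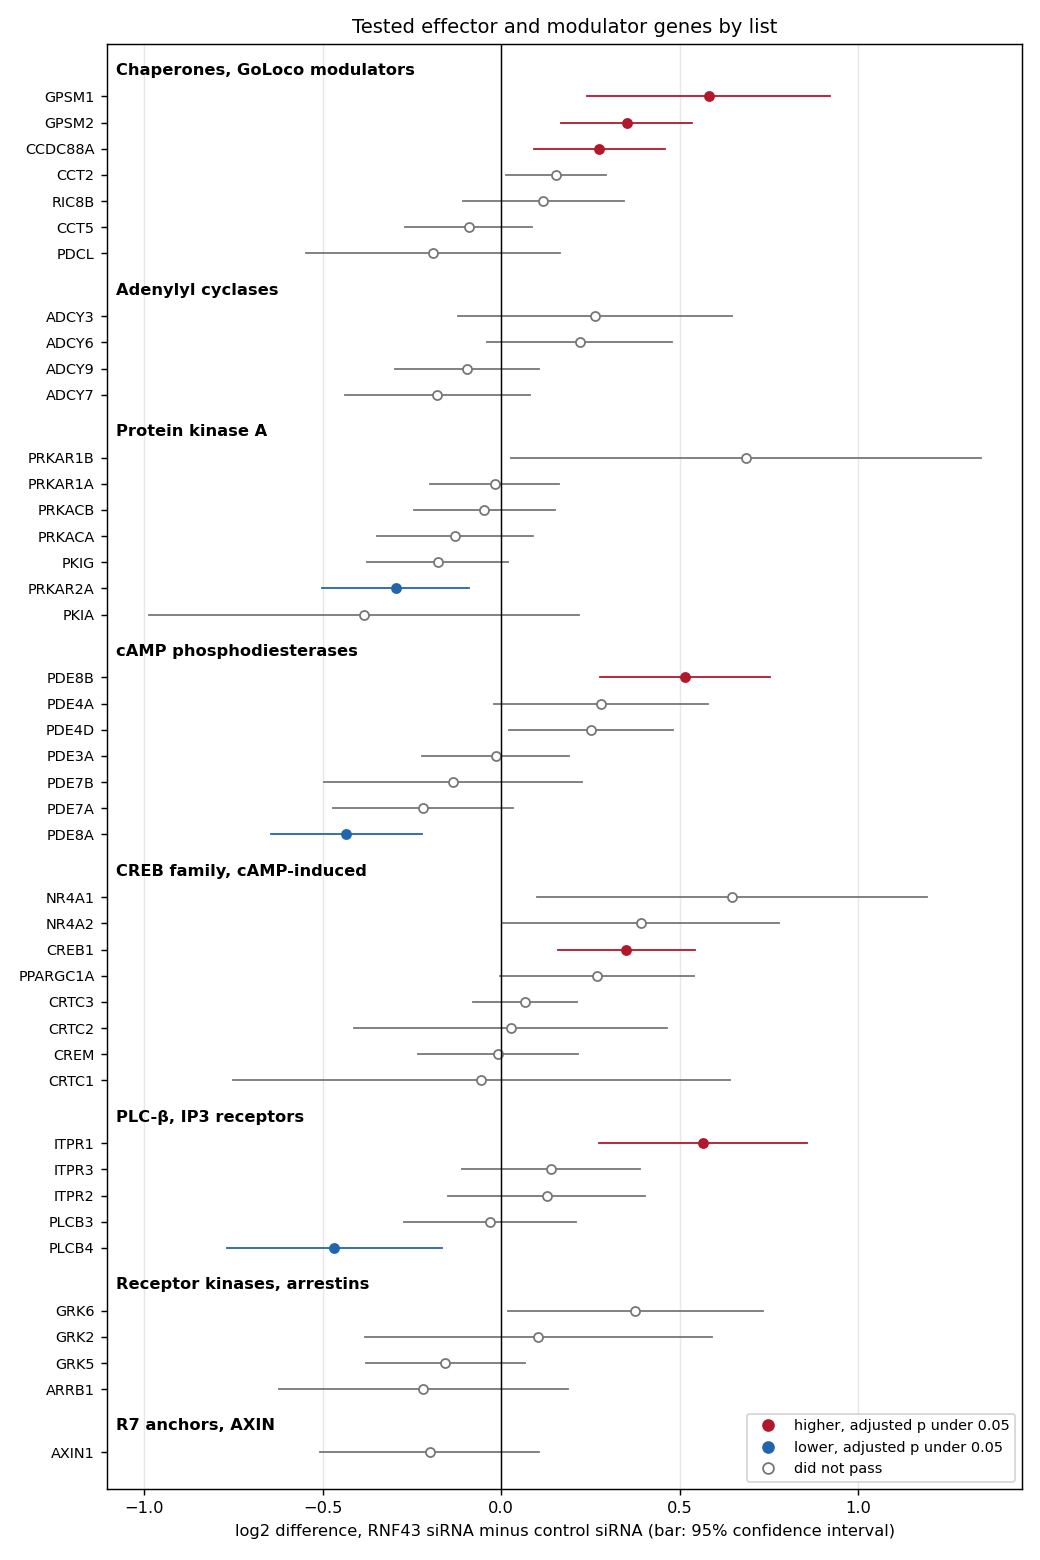
Log2 difference of RNF43 siRNA minus control siRNA arrays for 43 of the 48 tested effector and modulator genes, by list, with 95% confidence intervals; the 5 not plotted did not pass. The intervals of the 9 that passed exclude 0, and the plotted differences run from -0.47 to 0.69.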

How the data were processed

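Each of the 6 arrays held 54613 probe sets, with median log2 signals of 5.89 to 6.02. The deposited values are log2 signals made with MAS5, per the submitters' processing notes; the MAS5 version and its scaling target could not be read from the labels or headers, and base 2 was read from the values. Linear means trimmed at both ends were 497.03 to 497.23, so arrays had been scaled. MAS5 takes mismatch probes off the signal, so low values are noisy. No detection call was used.

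Values were used as deposited. Probe sets were named by the platform's annotation, with symbols brought up to date through RefSeq. Of them, 41091 named 1 gene. The RNF43 siRNA and control siRNA arrays were compared by limma 3.58.1 (R 4.3.3, lmFit then eBayes, its prior variance following intensity). Tests had 2 sides, and p-values were adjusted by Benjamini-Hochberg over all 11853 tested genes (or 27306 probe sets), with calls at 0.05. The steps were tested on simulated data. Alternatives changed the normalization, added signal, filter, variance model, array weights, choice of probe set, replicate block or threshold, or left out 1 array. Values on every array are given for members that passed, for GNB4 probe sets and for probe sets or genes chosen after their values were seen. Effector genes named passed the test or were chosen likewise. A list of 5 tested effector genes is counted but not reported here. Members, lists and motifs were chosen with earlier results of these data known.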

Additional observations from a re-analysis of the deposited data

How the results depend on the processing

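The calls of GNB4, GNAI2 and RNF43 kept direction and passed in each of the 21 alternatives to the fit, which leave out the changed thresholds (GNAI2 is under 1.5-fold), with log2 differences of 0.75 to 2.14, -0.55 to -0.40 and 0.51 to 0.72. For GNB4 no alternative used 223488_s_at alone, and for GNAI2 and RNF43 the choice of probe set did not change the difference. There were 6 members called higher. This count was 2 without the filter on low values, 2 when all probe sets of a gene were averaged, 1 at adjusted p under 0.01, 3 with at least 1.5-fold and 1 to 4 on leaving out 1 array. Members called lower numbered 2, and 1 at 0.01, 4 at 0.10, 0 with at least 1.5-fold and 1 to 5 on leaving out 1 array. Effector genes called numbered 9, and 4 with the mean of probe sets, 2 at 0.01, 0 with at least 1.5-fold and 4 to 8 on leaving out 1 array. The share of all tested genes called moved too: 22.6% as reported, 11.7% without the filter, 14.96% with averaged probe sets, 11.6% at 0.01, 29.6% at 0.10, 7.28% with at least 1.5-fold, 33.0% with the replicate block and 14.7% to 22.4% on leaving out 1 array. The mean of probe sets turned GNB5 (log2 difference -0.048) and GNG12 (-0.13), whose probe sets differ in sign. For the other moves the cause was not tested. With the replicate number as a block, 5 members were called lower (GNA11, GNA12, GNAI2, GNAQ and GNG11), 7 higher, and 3908 genes in all against 2684. Deviations of same-numbered arrays correlated at 0.16, 0.08 and 0.27, and those of differently numbered arrays at -0.21 to 0.09. These values do not establish pairing, which was not tested. The gap between GNB4 probe sets was 2.03 to 2.26 over its alternatives. With 3 arrays per group, small differences of dim genes could not be detected.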
